A study of Homo sapiens with 12 samples.

Results

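The 48 genes described here encode the machinery that copies nuclear DNA. They comprise 18 genes of origin licensing and the replicative helicase, 9 of the DNA polymerases and primase, and 11 of the sliding clamp, its loader and the factors that finish new strands. A further 4 supply nucleotides, and 6 act in fork protection, repair and chromatin assembly behind the fork. They were listed by symbol and role, with earlier results of these data known, and were matched by Ensembl ID to 48 of the 60649 genes of the deposited table. All 48 passed the filter on low counts, which kept 17576 genes. RNA was sequenced from MDA-MB-231, an established human breast cancer line, in 4 groups of 3 libraries. SIRT1 KD cells carried a short hairpin RNA (shRNA) against SIRT1, an NAD-dependent deacetylase. IGF2BP2 KD cells carried an shRNA against IGF2BP2, an RNA-binding protein. Double KD cells carried both, and control cells carried a sham shRNA. Cells of all 4 groups were infected with lentivirus in Polybrene at 8 µg/mL, grown in RPMI-1640 with 10% fetal bovine serum and held in puromycin at 2.0 µg/mL, so the controls share infection and selection. Neither the hairpin sequences nor the number of hairpins per target is given in the sources used here. No group is described as carrying a sham hairpin beside a targeting one. In double KD cells the load of hairpins therefore cannot be told apart from their targets. The design text speaks of 3 independent analyses per group without saying whether each began from its own infection, and p-values measure the spread between them.

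Replication is prepared in G1, when the origin recognition complex, CDC6 and CDT1 load the MCM helicase onto DNA, and geminin, the product of GMNN, keeps CDT1 from loading it again later in the cycle. CDC45 and the GINS complex switch the helicase on, polymerase alpha with its primase starts each strand, and polymerases delta and epsilon extend it while held by the PCNA clamp, which the RFC complex loads. Many of these genes are transcribed under E2F factors as cells pass from G1 into S phase, so their RNA is a common measure of proliferation in tumour cells.

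Promoters of some of these genes are shown because 29 of the 48 were called lower in SIRT1 KD cells. The sequences run from 250 bases before to 50 after the start (300 bases each), 5′ to 3′ on the gene's strand, from RefSeq on GRCh38.p14, and capitals mark matches to an E2F-type motif. The motif was searched as TTTCCCGC, TTTCGCGC, TTTGCCGC or TTTGGCGC on both strands. MCM3 and PCNA were lower in SIRT1 KD cells, and MCM6 was not called in SIRT1 KD cells and higher in double KD cells. RFC4, which was lower in SIRT1 KD cells, has no match in this window. In MCM6 the matches on the 2 strands overlap. PCNA has another listed start, with the window chr20:5119909-5120208, which has no match and is not shown.
MCM3, chr6:52284693-52284992, minus strand: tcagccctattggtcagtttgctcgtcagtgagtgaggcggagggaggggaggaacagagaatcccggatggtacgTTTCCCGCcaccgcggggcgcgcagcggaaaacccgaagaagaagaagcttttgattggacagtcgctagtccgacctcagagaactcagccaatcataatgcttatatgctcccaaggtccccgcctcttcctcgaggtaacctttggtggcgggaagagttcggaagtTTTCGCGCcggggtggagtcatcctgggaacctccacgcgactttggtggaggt
MCM6, chr2:135876394-135876693, minus strand: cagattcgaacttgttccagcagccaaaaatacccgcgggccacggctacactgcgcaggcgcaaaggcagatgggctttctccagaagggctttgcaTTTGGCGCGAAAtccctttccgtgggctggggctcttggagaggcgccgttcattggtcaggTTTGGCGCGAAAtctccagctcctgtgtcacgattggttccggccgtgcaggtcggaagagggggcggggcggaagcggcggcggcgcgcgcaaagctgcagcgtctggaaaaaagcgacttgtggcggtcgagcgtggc
PCNA, chr20:5126573-5126872, minus strand: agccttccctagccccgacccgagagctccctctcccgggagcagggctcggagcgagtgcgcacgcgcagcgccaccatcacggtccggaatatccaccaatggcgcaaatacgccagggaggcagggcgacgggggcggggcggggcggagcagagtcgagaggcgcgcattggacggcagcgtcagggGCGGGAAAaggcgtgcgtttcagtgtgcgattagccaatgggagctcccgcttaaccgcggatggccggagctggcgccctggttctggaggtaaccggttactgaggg
RFC4, chr3:186806433-186806732, minus strand: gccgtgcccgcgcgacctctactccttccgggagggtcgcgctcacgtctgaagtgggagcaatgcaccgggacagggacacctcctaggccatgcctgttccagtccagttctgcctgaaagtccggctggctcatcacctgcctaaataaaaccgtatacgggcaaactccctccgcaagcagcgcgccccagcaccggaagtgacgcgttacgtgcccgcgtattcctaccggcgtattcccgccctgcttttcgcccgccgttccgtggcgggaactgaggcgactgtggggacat
Genes with several listed starts were counted once, with a match at any of them. A match was found in 23 of the 42 members with a RefSeq promoter entry (54.8%), against 745 of 11734 tested genes (6.35%) and 1090 of all 27305 genes (3.99%). It was also found in 8 of 31 further replication genes (25.8%), 6 of 21 regulators of the E2F pathway (28.6%) and 3 of 30 mitotic genes. By role, 11 of 15 licensing and helicase promoters held one, 4 of 8 of polymerases and primase, 3 of 9 of the clamp group, 1 of 4 of nucleotide supply and 4 of 6 of the fork group. Members called lower in SIRT1 KD cells held it in 15 of 27 promoters (55.6%) and the other members in 8 of 15 (53.3%), so the share was close in both. These are matches of letters and were not measured as bound sites. MCM4, MCM5, GINS4, POLD3, RPA2 and RPA3 had no entry.

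Reads assigned to genes came to 19522606 to 22509142 in 11 libraries and to 15243152 in double KD replicate 2, which also had fewer mitochondrially encoded reads (1.18%, against 1.99% to 2.57% in the others) and lay furthest from its partners (SD over all genes of the log2 difference from their mean 0.478, against 0.273 to 0.379 in the other 11). The 5 mesenchymal markers of the line summed to 118231-127322 normalised counts in SIRT1 KD, 102308-110715 in IGF2BP2 KD and 109587-122129 in double KD libraries, against a control range of 105959-110691, and 2 of the 5 were called higher in SIRT1 KD cells. The 5 immune markers summed to 22.0 or less. The 6 luminal epithelial markers, of which PGR and FOXA1 were at or near 0, summed to 306-367 in SIRT1 KD, 456-484 in IGF2BP2 KD and 283-355 in double KD libraries, against a control range of 439.8-476. The 5 fibroblast markers, of which DCN and COL3A1 were at or near 0, summed to 477-553 in SIRT1 KD, 636-675 in IGF2BP2 KD and 683-1142 in double KD libraries, against a control range of 663-702. Their part in the results below was not tested. Exons of other genes overlap over 20% of the exon sequence of 7 members (TYMS 46.6%, POLA2 35.1%, MCM2 and GINS4 23.6%, PRIM1 21.6%, TIPIN 21.0% and RRM2 20.2%). For TYMS, MCM2 and GINS4 these genes lie on the opposite strand, where reads cannot be told apart without a stated strand setting. For POLA2, TIPIN and RRM2 they lie on the same strand, which no strand setting separates, and for PRIM1 on both strands. SIRT1 RNA was at 547, 496 and 539 normalised counts in SIRT1 KD libraries, 396, 380.2 and 436 in double KD and 763, 691 and 730.4 in IGF2BP2 KD, against 799, 841 and 863 in control. IGF2BP2 RNA was at 709, 841 and 736 in IGF2BP2 KD libraries, 992, 715 and 884 in double KD and 3791, 3759 and 3720.5 in SIRT1 KD, against 3045, 3055 and 3127 in control. Each target was lower than in every control library wherever its hairpin was meant to be present, SIRT1 at 63.2% and 48.4% of control in SIRT1 KD and double KD cells and IGF2BP2 at 24.8% and 28.1% in IGF2BP2 KD and double KD cells. In IGF2BP2 KD cells, without its hairpin, SIRT1 was also below every control library, at 87.3% of control. It was not called there (-0.20, adjusted p = 0.102 in limma), but was with only the groups compared (0.019) and without double KD replicate 2 (0.024). Double KD cells had less SIRT1 RNA than SIRT1 KD cells did (log2 difference -0.38, adjusted p = 0.00157 in limma), so they hold less of both transcripts than SIRT1 KD cells. Against IGF2BP2 KD cells their IGF2BP2 RNA was not called (0.17, adjusted p = 0.181), but was higher without double KD replicate 2 (0.30, 2.3e-04). IGF2BP2 was called higher in SIRT1 KD cells than in control (0.29, adjusted p = 0.0274). That call was lost without any control or SIRT1 KD library (up to 0.0805).

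In SIRT1 KD cells against control, which asks which replication genes change with the SIRT1 hairpin, the machinery was broadly lower. Of 48 members 29 fell and 0 rose, with a median log2 fold change of -0.33 and 46 of 48 below 0. A call is a Benjamini-Hochberg adjusted p under 0.05 over all 17576 genes in limma, at which 15.7% of all genes were lower and 12.9% higher, with a median of 0.00. Beside the 0, 2 members (GMNN and TIPIN) were higher at an unadjusted p under 0.05, and edgeR and DESeq2 also called 0 higher. All 4 nucleotide supply genes fell, 8 of 11 of the clamp group, 12 of 18 licensing and helicase genes, 3 of 6 of the fork group and 2 of 9 polymerase and primase genes. Together the members took 0.202% to 0.207% of the reads in SIRT1 KD libraries, against 0.247% to 0.281% in control libraries. In bulk RNA, fewer cells in S phase and less of these transcripts per cell cannot be told apart. Control replicate 2 lay above the mean of the other controls for 46 of 48 members, and 18 members were called lower without it, 19 without SIRT1 KD replicate 2, and 37 if double KD replicate 2 is left out, which enters only the shared estimate of spread. Over all genes the 2758 falls became 2214, 2107 and 3671 in the same fits. Of the 29 calls, 18 were kept in each of the 12 fits that leave out 1 library.

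**Figure D1:**
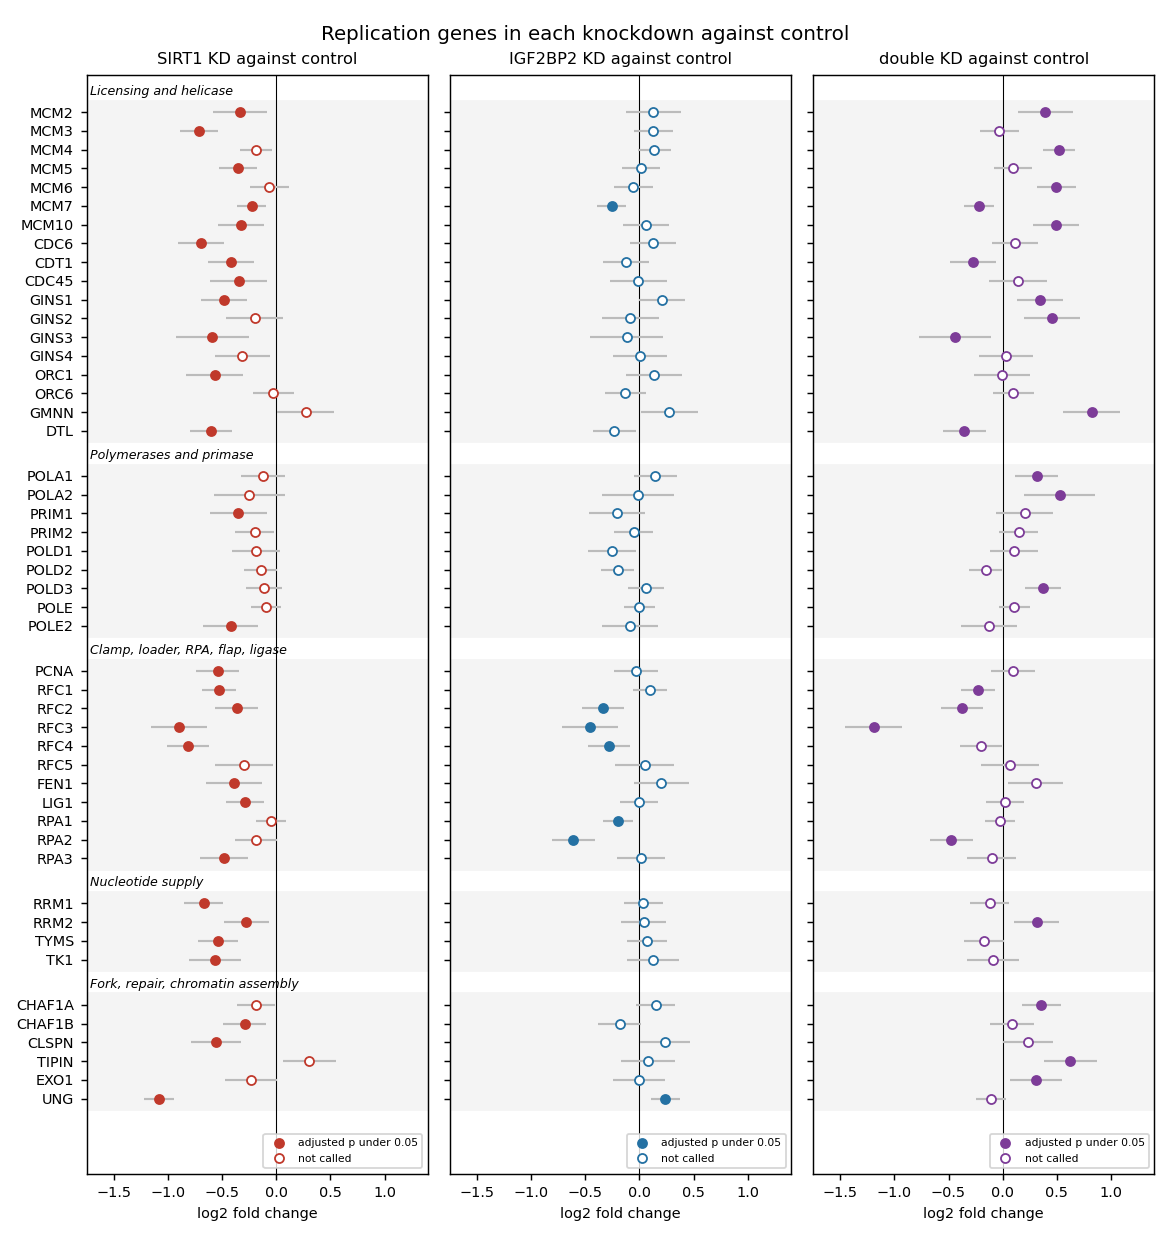
Log2 fold change of each of the 48 replication genes in SIRT1 KD, IGF2BP2 KD and double KD cells against control (x axis, limma on log2 of the normalised count plus 1), with genes grouped by role down the page. Points are estimates, bars 95% confidence intervals, and filled points have an adjusted p under 0.05 (29 lower in SIRT1 KD, 6 lower and 1 higher in IGF2BP2 KD, 8 lower and 14 higher in double KD).

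Among the 6 subunits of the MCM helicase, which unwinds DNA ahead of the polymerases, MCM3 had the largest fall in SIRT1 KD cells. MCM3 (ENSG00000112118.20, chromosome 6, 52264009 to 52284881, minus strand, GRCh38) had 2207, 2026 and 2293 normalised counts in SIRT1 KD libraries, 4199.5, 3615 and 3868 in IGF2BP2 KD and 3270.3, 3921 and 3288 in double KD, against 3266, 3909 and 3536 in control. The 3 SIRT1 KD libraries lay below all 9 others. MCM3 fell in SIRT1 KD cells to 60.9% of control (log2 fold change -0.71, 95% interval -0.89 to -0.53, adjusted p = 4.7e-06), while it did not pass the test in IGF2BP2 KD (0.13, -0.05 to 0.31) or double KD cells (-0.03, -0.21 to 0.15). The other 5 subunits were at 78.1% to 95.6% of control in SIRT1 KD cells. MCM5 fell by 0.35 on the log2 scale (adjusted p = 0.00299). MCM2 fell by 0.34 (adjusted p = 0.0431), a call kept in 4 of 12 leave-one-out fits and lost without any SIRT1 KD or IGF2BP2 KD library or control replicate 2 or 3 (adjusted p up to 0.171). MCM4 (-0.18, adjusted p = 0.0594) and MCM6 (-0.06, adjusted p = 0.643) were not called. Per kilobase of exon the control levels ran from 1051 for MCM7 and 978 for MCM3 to 164 for MCM5, although the subunits assemble in equal number.

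In the double KD cells MCM4 and MCM6 lay above every other library. MCM4 had 2749.6, 2873 and 2840.1 normalised counts in double KD, 1785, 1705 and 1700.2 in SIRT1 KD and 2379.9, 2054 and 2072 in IGF2BP2 KD libraries, against 1889, 2126 and 1891 in control. MCM6 had 1962, 2349.6 and 2121 in double KD, 1465, 1411 and 1483 in SIRT1 KD and 1644, 1285 and 1475 in IGF2BP2 KD libraries, against 1438, 1616 and 1503 in control. For both genes the 3 double KD libraries did not overlap any of the other 9. They rose in double KD cells by 0.52 (95% interval 0.37 to 0.67, adjusted p = 1.4e-05) and 0.49 (0.31 to 0.68, adjusted p = 2.1e-04) on the log2 scale. MCM2 rose by 0.39 (adjusted p = 0.0158; 0.089 without control replicate 1), with 1268, 1935 and 1394 counts in double KD libraries, of which replicate 2 was far the highest, against 1012, 1258 and 1182 in control. MCM7 went the other way. It had 3701, 4127 and 4062 counts in double KD, 4115, 3772 and 3917 in SIRT1 KD and 3935, 3795 and 3828 in IGF2BP2 KD libraries, against 4363, 4851 and 4616 in control. All 9 knockdown libraries lay below all 3 controls, and MCM7 fell in each group, by 0.23 in SIRT1 KD, 0.26 in IGF2BP2 KD and 0.22 in double KD cells (adjusted p = 0.012, 0.00954 and 0.0132). Each of these calls was lost without control replicate 2 (adjusted p up to 0.0766), that in SIRT1 KD cells also without SIRT1 KD replicate 2, and that in double KD cells also with only the groups compared (0.0629).

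CDC6, CDT1 and ORC1, which load the helicase, fell in SIRT1 KD cells, and ORC6 was not called. CDC6, an ATPase that helps place the helicase on origins, had 494, 479 and 567 normalised counts in SIRT1 KD, 1047, 774 and 918 in IGF2BP2 KD and 833, 952 and 913 in double KD libraries, against 789, 889 and 818 in control. The SIRT1 KD libraries lay below the other 9, which overlapped one another. CDC6 fell by 0.70 in SIRT1 KD cells (95% interval -0.91 to -0.49, adjusted p = 3.8e-05). ORC1, the largest subunit of the origin recognition complex, fell by 0.57 (adjusted p = 0.00181) and ORC6, its smallest, was at -0.03 (adjusted p = 0.865). CDT1, the partner of CDC6 in loading, had 564, 503 and 521 counts in SIRT1 KD, 685, 681 and 587 in IGF2BP2 KD and 519, 701 and 549 in double KD libraries, against 688, 717 and 717 in control. It fell by 0.42 in SIRT1 KD (adjusted p = 0.00391) and by 0.27 in double KD cells (adjusted p = 0.0422), the last call kept in 3 of 12 leave-one-out fits. It was lost without any control or SIRT1 KD library, IGF2BP2 KD replicate 1, or double KD libraries 1 or 3 (adjusted p up to 0.171), with no filter on low counts (0.076) and with only the groups compared (0.108). DTL, the substrate receptor of the ligase that degrades CDT1 on PCNA, fell in SIRT1 KD cells by 0.60 (adjusted p = 8.6e-05) and in double KD cells by 0.35 (adjusted p = 0.00686).

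Geminin, which inhibits CDT1, was the licensing gene with the largest rise in double KD cells. GMNN (ENSG00000112312.10, chromosome 6, 24774931 to 24786099, plus strand) had 1000.5, 1427 and 1114 normalised counts in double KD, 807, 766 and 817 in SIRT1 KD and 865, 715 and 825 in IGF2BP2 KD libraries, against 574, 789 and 634 in control. The double KD libraries lay above all others, whereas those of each single knockdown overlapped the range of the controls. GMNN rose by 0.82 in double KD cells (95% interval 0.56 to 1.09, adjusted p = 6.9e-05) and did not pass the test in SIRT1 KD (0.27, adjusted p = 0.119) or IGF2BP2 KD cells (0.28, adjusted p = 0.153). Its interaction, the double KD minus the sum of the single changes, was 0.27 (95% interval -0.10 to 0.65, adjusted p = 0.443) and was not called.

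The activators of the helicase were all below 0 in SIRT1 KD cells, and in double KD cells their calls went in both directions. In SIRT1 KD cells GINS1 (-0.48, adjusted p = 0.00143), GINS3 (-0.59, adjusted p = 0.009), MCM10 (-0.33, adjusted p = 0.0213) and CDC45 (-0.35, adjusted p = 0.0459) fell, and GINS2 (-0.20) and GINS4 (-0.31) were not called. MCM10, a scaffold that helps the helicase start, had 666, 624 and 643 counts in double KD, 372, 357 and 367 in SIRT1 KD and 539.7, 435 and 465 in IGF2BP2 KD libraries, against 398, 532 and 453 in control. Its double KD libraries were the highest and its SIRT1 KD libraries the lowest of the 12. In double KD cells MCM10 rose by 0.49 (adjusted p = 9.4e-04), GINS2 by 0.45 (adjusted p = 0.00811) and GINS1 by 0.34 (adjusted p = 0.0126; up to 0.0712 without control replicate 1 or 3), while GINS3, the least abundant subunit, fell by 0.44 (adjusted p = 0.0396). The SIRT1 KD call of GINS3 was lost without control replicate 2, that of MCM10 without control replicate 2 or 3 or SIRT1 KD replicate 2 or 3, and that of CDC45 without control replicate 2 or 3, any SIRT1 KD library, IGF2BP2 KD replicate 3 or double KD replicate 3 (adjusted p up to 0.0556, 0.148 and 0.257). The double KD call of GINS3 was lost without control replicate 1 or 2, SIRT1 KD replicate 3, IGF2BP2 KD replicate 3, or double KD libraries 2 or 3 (up to 0.163), in DESeq2 (0.0643), with no filter on low counts (0.113) and with only the groups compared (0.058).

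**Figure D2:**
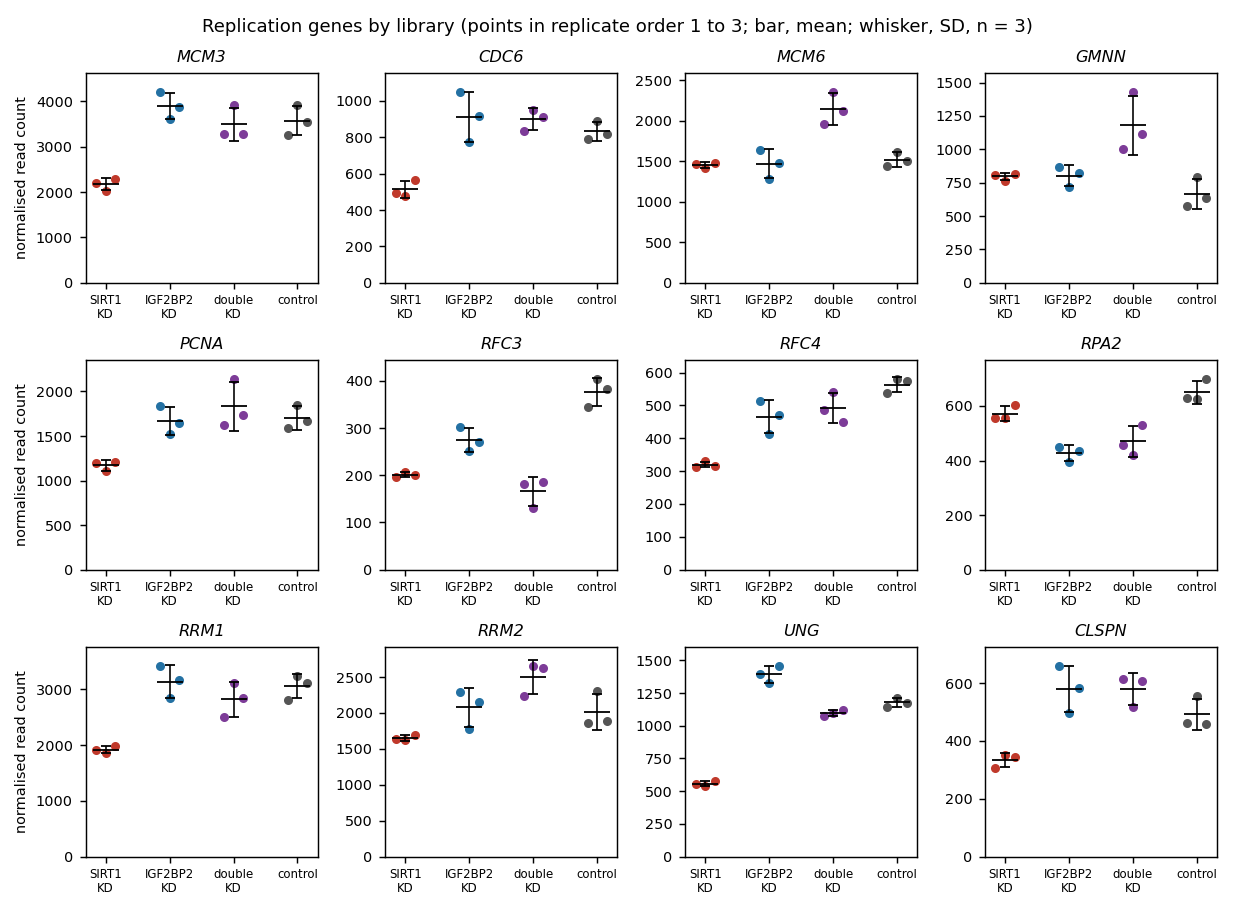
Size-factor-normalised read count (y axis, linear, from 0) of 12 replication genes in the 3 libraries of the SIRT1 KD, IGF2BP2 KD, double KD and control groups, with the mean as a bar and the SD as whiskers (n = 3). MCM3, CDC6, RRM1 and UNG lay lowest in the 3 SIRT1 KD libraries, MCM6 and GMNN highest in the 3 double KD libraries, and RFC3 lowest in the double KD libraries.

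Polymerase and primase genes moved least in SIRT1 KD cells, with a median of -0.18. POLE2, a subunit of the leading-strand polymerase epsilon, fell by 0.42 (adjusted p = 0.0143) and PRIM1, the catalytic primase, by 0.35 (adjusted p = 0.0422). The first call was lost without control replicate 2 or SIRT1 KD replicate 2 (adjusted p up to 0.0906) and the second held in 6 of 12 leave-one-out fits, lost without any control library, SIRT1 KD replicate 2 or 3 or IGF2BP2 KD replicate 3 (up to 0.132). POLE, the catalytic subunit, was at -0.09 (95% interval -0.23 to 0.05), and the delta subunits POLD1, POLD2 and POLD3 were at -0.18, -0.14 and -0.11, none called. In double KD cells 3 of 9 rose and 0 fell (1, POLD2, lower at an unadjusted p under 0.05, and 0 called lower by edgeR or DESeq2). POLA2, the regulatory subunit of polymerase alpha, had 119, 133 and 102 normalised counts in double KD, 77.5, 69.7 and 59.0 in SIRT1 KD and 74.0, 73.3 and 95.9 in IGF2BP2 KD libraries, against 77.6, 90.6 and 76.2 in control. Its double KD libraries lay above the other 9, at low counts. POLA2 rose by 0.53 (95% interval 0.20 to 0.86, adjusted p = 0.0135; up to 0.0568 without control replicate 1 or 3). POLD3, an accessory subunit of polymerase delta, rose by 0.37 (adjusted p = 0.00124) and POLA1, the catalytic subunit of polymerase alpha, by 0.31 (adjusted p = 0.0158; up to 0.0999 without control replicate 1 or 3 or double KD replicate 3).

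PCNA, the ring that tethers polymerases to DNA, had the same pattern of calls against control as MCM3. PCNA (ENSG00000132646.11, chromosome 20, 5114953 to 5126626, minus strand) had 1195, 1104 and 1212 normalised counts in SIRT1 KD, 1836, 1524 and 1649.7 in IGF2BP2 KD and 1624, 2138 and 1734 in double KD libraries, against 1594, 1853 and 1667 in control. The SIRT1 KD libraries lay below the other 9. The log2 fold change was -0.54 in SIRT1 KD cells (95% interval -0.74 to -0.34, adjusted p = 3.1e-04), -0.03 in IGF2BP2 KD cells (-0.23 to 0.17) and 0.10 in double KD cells (-0.10 to 0.30). FEN1, the flap nuclease, and LIG1, the ligase that seals Okazaki fragments, fell in SIRT1 KD cells by 0.39 and 0.29 (adjusted p = 0.0221 and 0.0136). Both calls were lost without control replicate 2 or SIRT1 KD replicate 2, and that of FEN1 also without SIRT1 KD replicate 3 (adjusted p up to 0.115).

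The clamp loader held the 2 largest falls of the clamp group. RFC3 (ENSG00000133119.13, chromosome 13, 33818049 to 33966558, plus strand), a small subunit of the loader, had 197, 206 and 201 normalised counts in SIRT1 KD, 301, 251 and 271 in IGF2BP2 KD and 182, 130.4 and 187 in double KD libraries, against 345, 403 and 382 in control. The order was double KD, SIRT1 KD, IGF2BP2 KD and control from lowest to highest, and no 2 groups overlapped. RFC3 fell by 0.90 (95% interval -1.16 to -0.64, adjusted p = 2.4e-05) in SIRT1 KD, 0.46 (adjusted p = 0.0167) in IGF2BP2 KD and 1.19 (adjusted p = 6.5e-07) in double KD cells. It was the member with the lowest level relative to control in double KD cells (44.1%), and its interaction was 0.16 (95% interval -0.21 to 0.53, adjusted p = 0.678). The IGF2BP2 KD call was lost without control replicate 2 or 3 or IGF2BP2 KD replicate 2 or 3 (adjusted p up to 0.0849).

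RFC4, another small subunit, fell in both single knockdowns and was not called in double KD cells. RFC4 had 314, 329.7 and 317 normalised counts in SIRT1 KD, 512, 412 and 471 in IGF2BP2 KD and 487, 539 and 448 in double KD libraries, against 537, 580.0 and 574 in control. The SIRT1 KD libraries were the lowest, at 56.8% of control, and 1 double KD library overlapped the controls. RFC4 fell by 0.81 in SIRT1 KD cells (95% interval -1.01 to -0.62, adjusted p = 2.5e-06) and by 0.28 in IGF2BP2 KD cells (adjusted p = 0.0445; kept in 4 of 12 leave-one-out fits), and was not called in double KD cells (-0.20, adjusted p = 0.106). RFC2 fell by 0.36, 0.34 and 0.37 in SIRT1 KD, IGF2BP2 KD and double KD cells (adjusted p = 0.00637, 0.0188 and 0.00434). RFC1, the large subunit, fell by 0.53 in SIRT1 KD cells and 0.23 in double KD cells (adjusted p = 2.9e-05 and 0.0232), and RFC5 was called in none of the 3. The IGF2BP2 KD call of RFC2 was lost without control replicate 2 or 3 or IGF2BP2 KD replicate 1 or 3, and the double KD call of RFC1 without control replicate 2 or 3 or double KD replicate 2 (adjusted p up to 0.0858 and 0.0841). The IGF2BP2 KD call of RFC4 was lost without any control or SIRT1 KD library or IGF2BP2 KD replicate 2 or 3 (up to 0.192) and with no filter on low counts (0.144), and the double KD call of RFC1 with only the groups compared (0.0806).

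Replication protein A, the trimer that coats single-stranded DNA, had a different set of calls against control in each subunit, with RPA1 and RPA2 both lower in IGF2BP2 KD cells. RPA2 had 450.5, 394 and 434 normalised counts in IGF2BP2 KD, 458, 420.0 and 532 in double KD and 555, 556 and 602 in SIRT1 KD libraries, against 628, 625 and 698 in control. The IGF2BP2 KD and double KD libraries lay below all others. RPA2 fell by 0.61 in IGF2BP2 KD (95% interval -0.80 to -0.41, adjusted p = 1.5e-04) and 0.47 in double KD cells (-0.67 to -0.28, adjusted p = 5.9e-04), and was at -0.19 in SIRT1 KD cells (adjusted p = 0.149). RPA3, the smallest subunit, fell in SIRT1 KD cells by 0.48 (adjusted p = 0.00217) and was at 0.02 and -0.10 in IGF2BP2 KD and double KD cells, neither called. RPA1, the large subunit, was at -0.05 in SIRT1 KD cells (adjusted p = 0.642) and fell by 0.20 in IGF2BP2 KD cells (adjusted p = 0.0478), a call kept in 3 of 12 leave-one-out fits, those without a double KD library (adjusted p up to 0.173 in the others), and lost with no filter on low counts (0.0847).

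Both subunits of ribonucleotide reductase, the enzyme that makes deoxynucleotides, fell in SIRT1 KD cells, to unequal levels. RRM1, the large subunit, had 1914, 1854 and 1981 normalised counts in SIRT1 KD, 3416, 2835 and 3159 in IGF2BP2 KD and 2498, 3119.6 and 2844 in double KD libraries, against 2814, 3243 and 3108 in control. It fell by 0.67 (95% interval -0.85 to -0.49, adjusted p = 9.1e-06), with the SIRT1 KD libraries below the other 9. RRM2, the small subunit that carries the radical, had 1639, 1624 and 1699 counts in SIRT1 KD, 2293, 1777 and 2156 in IGF2BP2 KD and 2229, 2653 and 2625 in double KD libraries, against 1853, 2300.2 and 1892 in control. It fell by 0.28 in SIRT1 KD cells (adjusted p = 0.0426) and rose by 0.31 in double KD cells (adjusted p = 0.019), and the double KD libraries overlapped the controls. The fall was lost without control replicate 2 or 3, any SIRT1 KD library, IGF2BP2 KD replicate 3 or double KD replicate 2 (adjusted p up to 0.237), and the rise without control replicate 1 or 3 or double KD replicate 2 or 3 (up to 0.0983). TK1, which salvages thymidine, fell in SIRT1 KD cells by 0.57 (adjusted p = 0.00123) and TYMS, which makes thymidylate, by 0.54 (adjusted p = 1.3e-04). In double KD cells TK1 (-0.09) and TYMS (-0.17) were not called.

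UNG, the glycosylase that removes uracil from DNA, had the largest fall of the 48 genes in SIRT1 KD cells. UNG (ENSG00000076248.11, chromosome 12, 109097574 to 109110992, plus strand) had 553, 542 and 580.1 normalised counts in SIRT1 KD, 1396, 1330.1 and 1457 in IGF2BP2 KD and 1075, 1095 and 1120.2 in double KD libraries, against 1146, 1216 and 1178 in control. No 2 of the 4 groups overlapped: SIRT1 KD was lowest, then double KD, control and IGF2BP2 KD. UNG fell by 1.08 in SIRT1 KD (95% interval -1.22 to -0.94, adjusted p = 1.5e-09), rose by 0.24 in IGF2BP2 KD (adjusted p = 0.017) and was not called in double KD cells (-0.10, -0.24 to 0.03). The rise was lost without control replicate 1 or 3 or IGF2BP2 KD replicate 1 or 3 (adjusted p up to 0.0967), and with no filter on low counts (0.107). CLSPN, which couples the fork to checkpoint signalling, fell in SIRT1 KD cells by 0.55 (adjusted p = 7.9e-04). CHAF1B, a subunit of the assembly factor that deposits histones behind the fork, fell by 0.29 (adjusted p = 0.0285; up to 0.15 without control replicate 2 or 3 or SIRT1 KD replicate 1 or 2).

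TIPIN, a fork protection factor, and CHAF1A rose in double KD cells without a call in either single knockdown. The interaction was called for neither gene. In double KD against SIRT1 KD cells CHAF1A was called higher and TIPIN was not called. TIPIN had 222, 268 and 239 normalised counts in double KD, 189.7, 179 and 213 in SIRT1 KD and 174, 151 and 173 in IGF2BP2 KD libraries, against 155, 176 and 141 in control. The double KD libraries were the 3 highest of 12. TIPIN rose by 0.63 (95% interval 0.38 to 0.87, adjusted p = 3.7e-04) and was at 0.30 in SIRT1 KD cells (adjusted p = 0.0602). CHAF1A, the large subunit of the assembly factor, rose by 0.36 (adjusted p = 0.00299). EXO1, a nuclease of mismatch repair, rose by 0.31 (adjusted p = 0.0444), a call kept in 4 of 12 leave-one-out fits and lost without control replicate 1 or 3, any SIRT1 KD library, IGF2BP2 KD replicate 3, or double KD libraries 1 or 3 (up to 0.176).

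IGF2BP2 KD cells against control, which asks what changes with the IGF2BP2 hairpin, differed little in these genes. Of 48 members 6 fell (MCM7, RFC2, RFC3, RFC4, RPA1 and RPA2) and 1 (UNG) rose, with a median of 0.00, while 9.39% of all genes were lower and 6.86% higher. The shares of all 48 members, near those of all genes, are no result about the machinery as a whole. By role, the falls lay in the clamp group (5 of 11, 45.5%) and in licensing and helicase (MCM7, 1 of 18). RPA2 was the member whose call held in all 12 leave-one-out fits. The count of falls was 1 without control replicate 2, 2 without control replicate 3 or IGF2BP2 KD replicate 3, 3 without IGF2BP2 KD replicate 2 and 9 without double KD replicate 2. The count of rises was 0 without control replicate 1 or 3 or IGF2BP2 KD replicate 1 or 3, 2 without control replicate 2 and 5 without double KD replicate 2. Over all genes the 1651 falls became 1089 to 2751 and the 1206 rises 715 to 2286 when 1 library was left out, both highest without double KD replicate 2. The IGF2BP2 KD libraries differed among themselves: replicate 1 lay above the mean of its partners for 43 of 48 members and replicate 2 for 6 of 48.

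In double KD cells against control, which asks what changes with both hairpins, 8 members fell and 14 rose, with a median of 0.10. Of all genes 17.5% were lower and 16.7% higher, against 16.7% and 29.2% of the members. The share of members that fell, near that of all genes, is no result about the machinery as a whole. Of the 29 members that fell in SIRT1 KD cells, 7 fell in double KD cells too (MCM7, CDT1, GINS3, DTL, RFC1, RFC2 and RFC3), 4 rose (MCM2, MCM10, GINS1 and RRM2) and 18 were not called; both comparisons use the same control libraries. The rises lay in licensing and helicase (7 of 18), polymerases and primase (3 of 9), the fork group (3 of 6) and nucleotide supply (1 of 4). In the clamp group 4 of 11 fell (RFC1, RFC2, RFC3 and RPA2) and 0 rose, beside which FEN1 was higher at an unadjusted p under 0.05 and was called higher by DESeq2 and not by edgeR. Falls numbered 4 without control replicate 2, and rises 8 and 9 without control replicates 1 and 3. Over all genes the 3079 falls became 2618, and the 2939 rises 2268 and 2331, in the same fits. Without double KD replicate 2, the library that stood apart, 12 members fell and 14 rose, and over all genes 3618 fell and 3450 rose.

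Set directly against SIRT1 KD cells, double KD cells had more of most replication transcripts. Of 48 members 34 were higher and 1 (RPA2) lower, with a median of 0.46, where 11.9% of all genes were higher and 10.7% lower, with a median of 0.02. All 4 nucleotide supply genes were higher, 13 of 18 licensing and helicase genes, 5 of 6 of the fork group, 6 of 9 polymerase and primase genes and 6 of 11 of the clamp group. The largest differences were in UNG (0.97, 95% interval 0.83 to 1.11, adjusted p = 1.1e-08), GINS1 (0.82, adjusted p = 1.1e-05), MCM10 (0.82, adjusted p = 1.3e-05), CDC6 (0.81, adjusted p = 1.3e-05) and CLSPN (0.79, adjusted p = 4.1e-05). MCM3 was higher by 0.68, PCNA by 0.64 and RRM2 by 0.59 (adjusted p = 1.5e-05, 1.0e-04 and 2.8e-04), and CDT1 was not called (0.14, -0.07 to 0.36). RPA2 was lower by 0.29 (adjusted p = 0.0325). That call was lost without any SIRT1 KD library or double KD replicate 1 or 2 (adjusted p up to 0.133), with no filter on low counts (0.0936) and with only the groups compared (0.107), and 2 members were lower without double KD replicate 3. Of the 34 higher calls 29 held in all 12 leave-one-out fits. Of the 29 members that fell in SIRT1 KD cells, 22 were among those higher here, and both comparisons use the same SIRT1 KD libraries.

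The interaction compares the change seen with both hairpins with the sum of the changes seen with each alone, on the log2 scale. A positive value means that double KD cells lie above the sum of the single changes. It was above 0 in 48 of 48 members, with a median of 0.43, and in 9264 of 17576 genes, with a median of 0.02. At an adjusted p under 0.05, 15 members were higher and 0 lower, where 1.70% of all genes were higher and 1.16% lower. Beside the 0, no member was lower at an unadjusted p under 0.05, and edgeR and DESeq2 called 0 lower too. The 15 were MCM3, MCM4, MCM6, MCM10, CDC6, GINS1, GINS2, PRIM1, POLD3, PCNA, RFC4, RRM1, RRM2, CHAF1B and UNG. RFC4 had the largest called value (0.90, 95% interval 0.62 to 1.17, adjusted p = 0.00178) and UNG the lowest adjusted p (0.73, 0.54 to 0.93, adjusted p = 6.3e-04). MCM10 was at 0.76 (adjusted p = 0.01), MCM4 at 0.57 (0.00697), PCNA at 0.67 (0.0139), MCM3 at 0.55 (0.02) and RRM2 at 0.55 (0.0428), and CDT1 was not called (0.27, -0.03 to 0.57). The calls of RFC4, UNG, MCM10 and MCM4 held in all 12 leave-one-out fits. The count was 4 without control replicate 2, 7 without control replicate 3, 7, 6 and 8 without SIRT1 KD replicates 1, 2 and 3, 7 without IGF2BP2 KD replicate 2 or 3, and 23 and 28 without double KD replicates 1 and 2. The count over all genes moved too, with 299 higher in all libraries, 152, 62 and 94 without control replicates 1, 2 and 3, 103, 115 and 99 without SIRT1 KD replicates 1, 2 and 3, 137 and 95 without IGF2BP2 KD replicates 2 and 3, and 686 and 1065 without double KD replicates 1 and 2. DESeq2 called 24 of the 48 members higher.

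**Figure D3:**
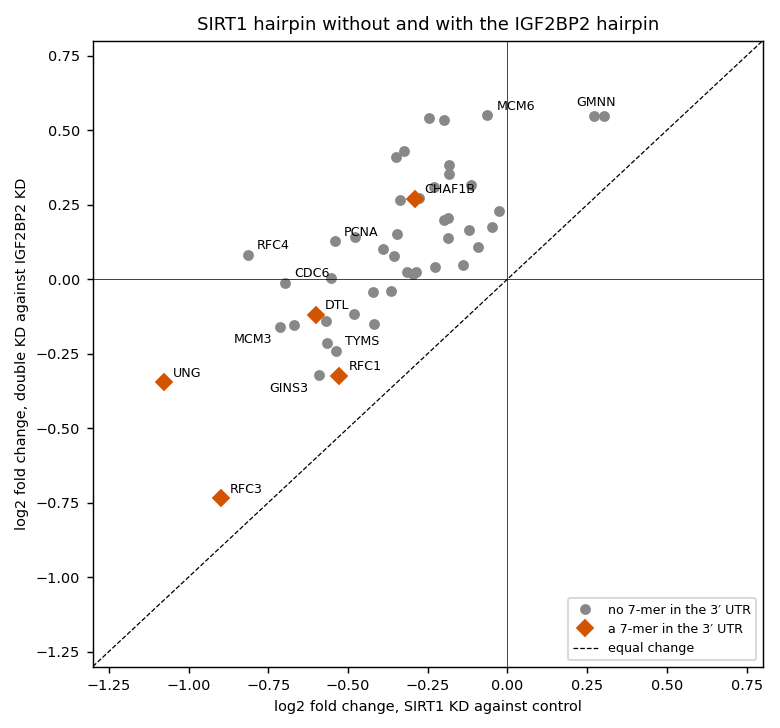
Each of the 48 replication genes by its log2 fold change in SIRT1 KD cells against control (x axis) and in double KD cells against IGF2BP2 KD cells (y axis), which share no library. All 48 points lie above the dashed line of equal change, and diamonds mark the 5 genes with CTCAGAT or TCAGATA in the 3′ UTR.

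Double KD against IGF2BP2 KD cells gives the change with the SIRT1 hairpin in cells that carry the IGF2BP2 hairpin. None of its libraries enters the comparison of SIRT1 KD with control. Of 48 members 4 were lower and 13 higher, with a median of 0.11, where 15.2% of all genes were lower and 16.4% higher. RFC3 (-0.74, SE 0.12, adjusted p = 1.8e-04), UNG (-0.35, adjusted p = 5.4e-04), RFC1 (-0.32, adjusted p = 0.00256) and TYMS (-0.24, adjusted p = 0.0433) were lower. All 4 were also lower in SIRT1 KD cells against control, as were 29 of the 48 members. Of those 29, another 4 (MCM10, PRIM1, RRM2 and CHAF1B) were higher here and 21 were not called. The call of TYMS was lost without control replicate 1 or 3, any SIRT1 KD library, IGF2BP2 KD replicate 1 or 2, or double KD libraries 1 or 3 (adjusted p up to 0.213), with no filter on low counts (0.111) and with only the groups compared (0.123). The largest rises were in MCM6 (0.55, adjusted p = 8.9e-05), TIPIN (0.55, adjusted p = 0.00144), GMNN (0.55, adjusted p = 0.00294), POLA2 (0.54, adjusted p = 0.0127; up to 0.0563 without IGF2BP2 KD replicate 1 or 2) and GINS2 (0.54, adjusted p = 0.00268). MCM3 (-0.16), PCNA (0.13) and CDT1 (-0.15) were not called. RRM2 rose by 0.27 (adjusted p = 0.0421), a call lost without control replicate 3, any SIRT1 KD library, IGF2BP2 KD or double KD replicate 2 or 3 (up to 0.229) and with only the groups compared (0.105). Without double KD replicate 2, 9 members were lower, MCM3 (-0.25, adjusted p = 0.00383) and CDT1 (-0.28, 0.00328) among them, and without IGF2BP2 KD replicate 2, 8 were higher. Over all genes the 2665 falls became 3133 in the former fit and the 2885 rises 2417 in the latter. Across the 48 genes the 2 log2 changes had a Pearson r of 0.76 and a Spearman rho of 0.76, given as a description since genes are not replicates; over all 17576 genes r was 0.59. The order of the genes was thus similar while the whole set lay higher by a median of 0.43.

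Short sequences in the 3′ UTR were also compared. In an earlier analysis of these same libraries the 7-mers CTCAGAT and TCAGATA were picked because genes that carry them in the 3′ UTR were lower in SIRT1 KD cells, so a link to that comparison, or to genes chosen by it, is no independent result. Of the 48 members 5 (UNG, RFC3, DTL, RFC1 and CHAF1B) carry one in the last exon of the annotated transcript. The sites of UNG, RFC3, DTL and RFC1 are shown as examples, 5′ to 3′ on the gene's strand in 30 bases, with the match in capitals (GRCh38, GENCODE 29).
UNG, chr12:109110567-109110573: tgtgagctttaTCAGATAagagaccgagag
RFC3, chr13:33837303-33837309: atttaatggaaTCAGATAttgtaagcattc
DTL, chr1:212103480-212103487: aaaatgtgatgCTCAGATAagtacatttat
RFC1, chr4:39288257-39288263: tttgtacattgTCAGATAtctttcaaagta
In SIRT1 KD cells all 5 were lower, with a median log2 fold change of -0.60, and 24 of the other 43 members were lower, with a median of -0.31. Among all tested genes with an annotated 3′ UTR 2229 of 13127 (17.0%) carry one, and 39.7% of these were lower, against 14.7% of the rest. In double KD against IGF2BP2 KD cells, which shares no library with that comparison, 35.7% of the 2229 were lower and 13.3% higher, against 14.1% and 22.2% of the 10898 without one. There RFC3, UNG and RFC1 were lower, DTL was at -0.12 (95% interval -0.32 to 0.08) and CHAF1B was higher by 0.27 (adjusted p = 0.0377; up to 0.147 without control replicate 3, IGF2BP2 KD replicate 2 or 3 or double KD replicate 3). MCM3, CDC6, RFC4, RRM1 and PCNA carry neither. The 3′ UTRs of the 5 members have 1023 to 2649 bases, and those of the other 43 have 67 to 2959. Lengths were not matched between genes with and without a 7-mer, and the part of length in these shares was not tested.

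Other genes of the replication and division programmes were set beside the 48. Of 38 further replication genes tested (39 listed, RNASEH2A being too low), 18 fell and 2 rose in SIRT1 KD cells (47.4% and 5.26%, against 15.7% and 12.9% of all genes; median -0.25). DONSON, a replisome factor, fell by 1.14, and RRM2B, the p53-inducible reductase subunit, by 1.04 (adjusted p = 8.5e-08 and 1.1e-06). In double KD against SIRT1 KD cells 16 of the 38 were higher (42.1%, against 11.9% of all genes) and 0 lower (0 also at an unadjusted p under 0.05 and in edgeR and DESeq2; median 0.23). They included CDC7, the kinase that fires origins (0.94, adjusted p = 8.6e-06) and DUT, which keeps uracil out of DNA (0.77, 8.4e-05). In double KD cells against control 10 rose and 9 fell (26.3% and 23.7%, against 16.7% and 17.5% of all genes), with RRM2B (-0.88, adjusted p = 5.2e-06) and MCMBP, an MCM-binding protein (-0.57, 6.0e-06), lower and SAMHD1, which breaks down deoxynucleotides, higher (0.49, 4.7e-06).

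Genes of mitosis fell in SIRT1 KD cells as well and, unlike the 48, had a median below 0 in double KD cells. Of 35 mitotic genes 15 (42.9%) fell and 0 rose in SIRT1 KD cells (median -0.23), where 15.7% of all genes fell and 12.9% rose. Beside the 0, none of the 35 was higher at an unadjusted p under 0.05 or in edgeR or DESeq2. In double KD cells 15 (42.9%) fell and 1 rose (median -0.18), where 17.5% and 16.7% of all genes did. MAD2L1, a spindle checkpoint protein, fell by 1.42 in SIRT1 KD cells and 0.92 in double KD cells (adjusted p = 5.1e-09 and 6.8e-07), and TOP2A, the decatenating topoisomerase, by 0.64 and 0.40 (adjusted p = 5.0e-06 and 5.4e-04). PTTG1, the securin, fell by 0.81 in SIRT1 KD cells (adjusted p = 6.4e-07), and CENPE, a kinetochore motor, by 0.93 in double KD cells (adjusted p = 7.6e-05). Against SIRT1 KD cells, double KD cells had 5 of the 35 higher and 2 lower (14.3% and 5.71%, median 0.07), where 11.9% and 10.7% of all genes were. The share higher lay near that of all genes and is no result about the mitotic genes as a whole. A called interaction was found in 1 (2.86%), MAD2L1 (0.77, adjusted p = 0.00697), where 1.70% of all genes had a higher one. Whether the 48 genes and the mitotic genes differ in this was not tested.

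Regulators of the E2F pathway, which governs many of the 48, were called in both directions. Of 25 tested of 27 listed (CDKN2A and CDKN2B were at 0 or 1 count), 11 fell and 4 rose in SIRT1 KD cells (44% and 16%, against 15.7% and 12.9% of all genes). In IGF2BP2 KD cells 6 fell and 3 rose (24% and 12%, against 9.39% and 6.86%), and in double KD cells 7 fell and 6 rose (28% and 24%, against 17.5% and 16.7%). These are few genes, and several of the shares lie near those of all genes. In SIRT1 KD cells CCND1 (cyclin D1), E2F7 and the kinase inhibitor CDKN1B rose by 0.74, 0.74 and 0.51, and E2F8 and RB1 fell by 0.74 and 0.85 (adjusted p = 5.1e-08, 2.7e-07, 7.2e-06, 8.5e-06 and 4.3e-05). CDC25A, the phosphatase that activates CDK2, had 985, 1182 and 1039.8 normalised counts in double KD, 586, 538 and 549.5 in SIRT1 KD and 645, 586 and 545 in IGF2BP2 KD libraries, against 380.2, 453 and 407 in control. The double KD libraries were the highest, and CDC25A rose there by 1.37 (95% interval 1.18 to 1.56, adjusted p = 2.2e-09), while CDK6, a kinase that starts the phosphorylation of RB1, fell by 1.41 (adjusted p = 4.6e-09). In double KD against SIRT1 KD cells E2F1 was higher by 0.68 (adjusted p = 2.2e-04). Their part in the levels of the 48 genes was not tested.

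The set was also followed library by library. Relative to the control mean, the median of the 48 genes was -0.32, -0.37 and -0.30 in the SIRT1 KD libraries, 0.15, -0.11 and -0.01 in IGF2BP2 KD, and -0.01, 0.14 and 0.11 in double KD, against -0.08, 0.11 and -0.03 in control (log2). The SIRT1 KD libraries lay close together and apart from the other 9, whose ranges overlapped. The median of the 35 mitotic genes was -0.21, -0.17 and -0.19 in SIRT1 KD, 0.06, -0.13 and -0.02 in IGF2BP2 KD and -0.21, -0.22 and -0.05 in double KD libraries, against -0.08, 0.07 and 0.01 in control.

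**Figure D4:**
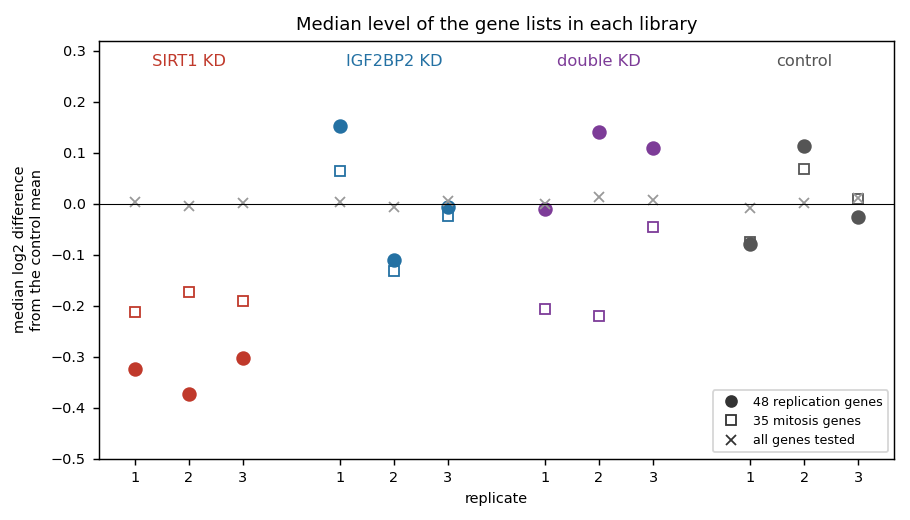
Median log2 difference from the control mean in each of the 12 libraries (x axis, replicates by group), for the 48 replication genes (circles), 35 mitotic genes (squares) and all genes tested (crosses), with the SIRT1 KD, IGF2BP2 KD and double KD groups left of control. The SIRT1 KD libraries lie lowest for the 48 genes (-0.37 to -0.30), and in double KD the mitotic genes lie below 0 (-0.22 to -0.05).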

How the data were processed

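Total RNA from 12 libraries (1 µg each) was sequenced after a New England Biolabs Ultra II preparation, per the labels' protocols. Per the submitters' processing notes the tools were CASAVA, STAR and DESeq2, on GRCh38.p13, with no version stated. Neither the annotation nor the counter and its strand setting is given in the sources used here. The deposited main table holds a signal, read counts per gene divided by a size factor per library, as the authors made it. In each column 100% of values were whole multiples of one step (within 0.001 reads), so reads were recovered for the count-based alternatives. A deposited table of log2 ratios that the authors computed was used to check the column codes: over 11503 genes the SD of the difference was at most 0.004 for the same library and at least 0.132 for any other. A table of raw counts names no columns, and its 12 columns were not used.

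Of 60649 IDs 60507 had a symbol and 58381 were in GENCODE 29. limma 3.58.1 (R 4.3.3) was fitted to log2(normalised count + 1) of all 12 libraries with 4 group means, trend and robust variances, on 17576 genes kept by edgeR's filterByExpr (minimum count 10), with Benjamini-Hochberg adjustment over all of them. Fold changes are on that scale, which understates changes of low genes, and intervals are 95%. Adjusted p-values are from limma unless another tool is named. The script was tested on simulated data. Alternatives were edgeR 4.0.16 quasi-likelihood, DESeq2 1.42.0, TMM library sizes, pseudocounts of 0.5 and 10, no filter or a mean of at least 50, only the groups compared, a replicate block, and leaving out each library.

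The members and the lists set beside them were chosen with earlier results of these data known. Named genes are the called members with the largest changes (at most 12 lower and 5 higher against control, 5 and 5 elsewhere) with the strongest of each role, MCM3, PCNA, RRM2 and CDT1 throughout, SIRT1 and IGF2BP2, and up to 5 of each other list by adjusted p in the comparison described, whose values elsewhere may be added; other members are named so that all 48 are accounted for. Some results of the lists are not reported here.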

Additional observations from a re-analysis of the deposited data

Results flagged for a closer look

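The effect of the SIRT1 hairpin on the replication genes differed between cells without and with the IGF2BP2 hairpin, by the test of that difference itself (the interaction, limma). It was higher than 0 at an adjusted p under 0.05 in 15 of the 48 genes and lower in 0, where 1.70% of all genes were higher and 1.16% lower, and leaving out 1 library gave 4 to 28 higher members. Among the named genes the log2 values were 0.90 for RFC4, 0.76 for PRIM1, 0.76 for MCM10, 0.74 for GINS2, 0.73 for UNG, 0.67 for PCNA, 0.55 for MCM3 and 0.55 for RRM2. The calls of PRIM1, GINS2, MCM3 and RRM2 held in 5, 4, 6 and 2 of the 12 leave-one-out fits (adjusted p up to 0.0811, 0.108, 0.0846 and 0.139), that of PRIM1 was lost with no filter on low counts (0.092), and that of PCNA without control replicate 2 (0.0592). Double KD cells also held less SIRT1 RNA than SIRT1 KD cells did (log2 difference -0.38). They carried both targeting hairpins, and no group is described as matched to them in hairpin load, which cannot be told apart here.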

How the results depend on the processing

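Counts of members called were close to the main ones in most fits. Exceptions were 1 higher in SIRT1 KD with a mean of at least 50 and 2 with only the groups compared; 0 and 2 higher in IGF2BP2 KD with no filter and only the groups compared; 4 lower in double KD, 0 lower in double KD against SIRT1 KD and 8 higher in double KD against IGF2BP2 KD with only the groups compared; 0 lower in double KD against SIRT1 KD with no filter; and 24 with a higher interaction in DESeq2. Leaving out 1 library gave 18 to 37 lower and 0 to 2 higher in SIRT1 KD, 1 to 9 and 0 to 5 in IGF2BP2 KD, 4 to 12 and 8 to 15 in double KD, 0 to 2 and 30 to 37 in double KD against SIRT1 KD, 3 to 9 and 8 to 15 in double KD against IGF2BP2 KD, and 0 to 0 and 4 to 28 for the interaction. Over all genes, only the groups compared gave 3798 higher in SIRT1 KD, 2771 lower and 2345 higher in IGF2BP2 KD, 1129 and 1085 in double KD against SIRT1 KD and 1838 higher in double KD against IGF2BP2 KD; DESeq2 gave 393 lower and 526 higher for the interaction. The interaction uses all 12 libraries, so it has no fit with only the groups compared.

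Leaving out 1 library, 5 values that were not called changed sign near 0. PCNA in IGF2BP2 KD ran from -0.102 (without IGF2BP2 KD replicate 1) to 0.0325 (without replicate 2, and 0.03 without control replicate 2). RRM2 in IGF2BP2 KD ran from -0.0349 to 0.149 and was also below 0 without control replicates 1 and 3. MCM3 in double KD ran from -0.119 to 0.0344, PCNA in double KD from -0.0196 to 0.179, and the interaction of IGF2BP2 from -0.224 to 0.0126. Among single genes 1631 values over all alternatives kept side and direction, 149 lost a call and 5 gained one. The causes were not tested.

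Replicate numbers did not pair the samples: in 18 same-numbered pairs the correlation of deviations from the group means was -0.193 to 0.0996. With a replicate block 27 members were lower and 0 higher in SIRT1 KD, 4 and 1 in IGF2BP2 KD, 8 and 13 in double KD, 1 and 35 in double KD against SIRT1 KD, 3 and 11 in double KD against IGF2BP2 KD, and 0 and 14 for the interaction. Among the named genes the block took away the calls of RRM2 in SIRT1 KD (adjusted p = 0.0594), RFC4 and RPA1 in IGF2BP2 KD (0.0568 and 0.0513), TYMS and RRM2 in double KD against IGF2BP2 KD (0.0505 and 0.0584) and the interaction of RRM2 (0.0601). Double KD replicate 2 had the lowest depth and lay furthest from its partners, and the part of depth in the calls was not tested.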
